A study of Homo sapiens with 6 samples.

Results

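Transcripts of 9 genes of matrix breakdown and plasminogen activation were compared between HT-1080 cells given PhenDC3 and HT-1080 cells given its solvent. The genes were chosen by name: 4 matrix metalloproteinases (MMP1, MMP2, MMP3 and MMP14), 3 tissue inhibitors of metalloproteinases (TIMP1, TIMP2 and TIMP3), the urokinase gene PLAU and its receptor gene PLAUR. They were 9 of the 22925 genes measured, and each had a mean of at least 5 normalized counts, the minimum for testing. HT-1080 is an established human fibrosarcoma line, and PhenDC3 is a ligand of G quadruplexes, the stacked folds of guanine-rich DNA and RNA, and holds them in place. The treated group held 3 libraries from cells exposed to PhenDC3, at 20 μM over 48 h with DMSO at 1%, and the control group 3 libraries from cells with DMSO at 1% over the same 48 h. The comparison addresses which transcripts differ in abundance when the ligand is present.

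Matrix metalloproteinases are zinc enzymes that cut collagens and other proteins outside the cell. They are made as inactive precursors, and TIMPs block the active enzymes by binding to them. MMP14 sits in the cell membrane, where TIMP2 can tether the MMP2 precursor so that a free MMP14 molecule cuts it. Urokinase, bound to its receptor on the cell surface, turns plasminogen into plasmin, a broad protease that also activates some metalloproteinase precursors. Urokinase is in turn blocked by inhibitors of the serpin family, among them the product of SERPINB2. HT-1080 cells are widely used to study invasion through matrix, and MMP14, MMP2 and urokinase are the proteases most often studied in them.

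Since PhenDC3 binds G quadruplexes, the promoters of the members were searched for sequence able to form one. The set of promoter windows used here, taken from RefSeq (GRCh38.p14), covered 5 of the 9 members. These had 6 windows in all because PLAU has 2 annotated starts. MMP1, MMP2, MMP3 and TIMP2, which are the members that rose, had no entry in that set, so neither motif was searched for in them. The gap belongs to the set used here, and whether RefSeq annotates their starts was not checked. The G quadruplex motif asked for 4 runs, each at least 3 G long, joined by any 1 to 7 bases, on either strand, within the 250 bases before the start. It was found in 3 of the 6 windows, those of MMP14, TIMP3 and the downstream start of PLAU, against 23.5% of the 35114 promoters in the table. The AP-1 motif TGANTCA, which reads the same on both strands, was found in the PLAUR window alone, against 6.57% of all promoters. The windows that hold a motif are shown because they include a gene that fell (PLAU) and genes that were not called (MMP14, TIMP3 and PLAUR). Capitals mark the G quadruplex motif in the first 3 and the AP-1 motif in the last, and each is read 5′ to 3′ on the strand of its gene.
PLAU, downstream start, chr10:73910882-73911131, plus strand: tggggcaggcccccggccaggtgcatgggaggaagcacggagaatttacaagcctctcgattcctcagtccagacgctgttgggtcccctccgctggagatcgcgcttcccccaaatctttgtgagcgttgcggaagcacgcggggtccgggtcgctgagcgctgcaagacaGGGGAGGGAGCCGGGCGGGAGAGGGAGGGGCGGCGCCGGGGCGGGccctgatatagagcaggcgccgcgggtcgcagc
MMP14, chr14:22836335-22836584, plus strand: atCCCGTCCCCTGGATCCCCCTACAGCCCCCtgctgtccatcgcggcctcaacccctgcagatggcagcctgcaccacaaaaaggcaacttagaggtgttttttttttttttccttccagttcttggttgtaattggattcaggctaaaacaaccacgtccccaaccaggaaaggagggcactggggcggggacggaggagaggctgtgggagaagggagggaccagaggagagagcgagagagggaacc
TIMP3, chr22:32801455-32801704, plus strand: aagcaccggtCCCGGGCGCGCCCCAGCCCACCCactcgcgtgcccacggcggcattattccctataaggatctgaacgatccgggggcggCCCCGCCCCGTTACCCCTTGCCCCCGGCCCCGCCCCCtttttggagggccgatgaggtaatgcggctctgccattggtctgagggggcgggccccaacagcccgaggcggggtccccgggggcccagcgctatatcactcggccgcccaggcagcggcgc
PLAUR, chr19:43670170-43670419, minus strand: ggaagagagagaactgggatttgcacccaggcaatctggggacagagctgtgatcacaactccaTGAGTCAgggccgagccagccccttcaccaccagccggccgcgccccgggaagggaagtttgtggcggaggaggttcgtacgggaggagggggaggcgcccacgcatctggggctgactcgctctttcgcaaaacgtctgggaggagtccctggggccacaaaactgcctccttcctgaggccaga
In the PLAU window the run of guanines lies on the strand of the gene, from 78 to 34 bases before the start, and the window of its upstream start held no match. In MMP14 and TIMP3 the guanines lie on the other strand, so the strand shown is rich in cytosine there. TIMP3 holds 2 such stretches and MMP14 holds 1. A match is a description of these letters and says nothing about whether the structure forms.

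Values are normalized counts, in which the reads of a gene were scaled by the size factor that the authors gave the library. Recovered reads came to between 12574952 and 14292987 per DMSO library and between 7371056 and 9386691 per PhenDC3 library. RNA of the mitochondrial genome took 3.72% to 3.96% of reads in DMSO and 15.4% to 15.5% in PhenDC3. Of 7 fibroblast and mesenchymal markers VIM, FN1, CD44 and CDH2 were abundant. COL1A1 ranged from 46.2 to 63.8 across the DMSO libraries and from 73.5 to 96.8 across those of PhenDC3, and THY1 and NT5E stayed at or under 8.93 normalized counts in every library. In limma 4 of the 7 were called lower, COL1A1 was called higher (adjusted p = 0.00297) and THY1 and NT5E were too low to test. The summed level of these 7 was 45051 to 48327 in DMSO and 28285 to 28533 in PhenDC3. Summed markers of other cells were 59.3 to 72.4 and 74.8 to 83.4 for the epithelial list (ELF3 and CLDN4), 0.773 to 2.07 and 2.98 to 7.87 for the endothelial list (VWF and KDR), and 12.4 to 16.3 and 24.9 to 40.2 for the leukocyte list (CD68, CSF1R and LYZ). ELF3, with 1 read over the DMSO libraries and 24 over those of PhenDC3, was called higher in limma (adjusted p = 4.06e-05). With means of 0.259 in DMSO and 10.6 in PhenDC3, ELF3 reached the minimum mean of 5 only through its PhenDC3 libraries. A gene this low in DMSO could be tested only if it was higher in PhenDC3. CD68 was called higher too (limma, adjusted p = 0.0132), though not without PhenDC3 replicate 1 or 2. CLDN4 and CSF1R were not called, and VWF, KDR and LYZ were too low to test. The other 7 markers of those lists were not analysed here. The part of these marker shifts in the results was not tested. For the mitochondrial share the only check was scaling without mitochondrial genes, which kept every member's call. All libraries came from the HT-1080 line. In RNA from whole cultures fewer cells that express a gene and less of its RNA per cell cannot be told apart.

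Of the 9 members, 4 rose (MMP1, MMP3, TIMP2 and MMP2), 1 fell (PLAU) and 4 were not called (MMP14, TIMP1, TIMP3 and PLAUR) in limma at an adjusted p under 0.05. A call was common in these data, since 59.6% of the 16482 tested genes were called. The 5 called members were those with no overlap between the libraries of the 2 groups, as was so for 64.1% of tested genes. The median log2 change of the 9 was 0.06, and that of the tested genes was -0.02. The share called among the members was thus near the background. Among themselves the members spanned log2 changes from 3.22 for MMP1 to -0.69 for PLAU.

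**Figure D1:**
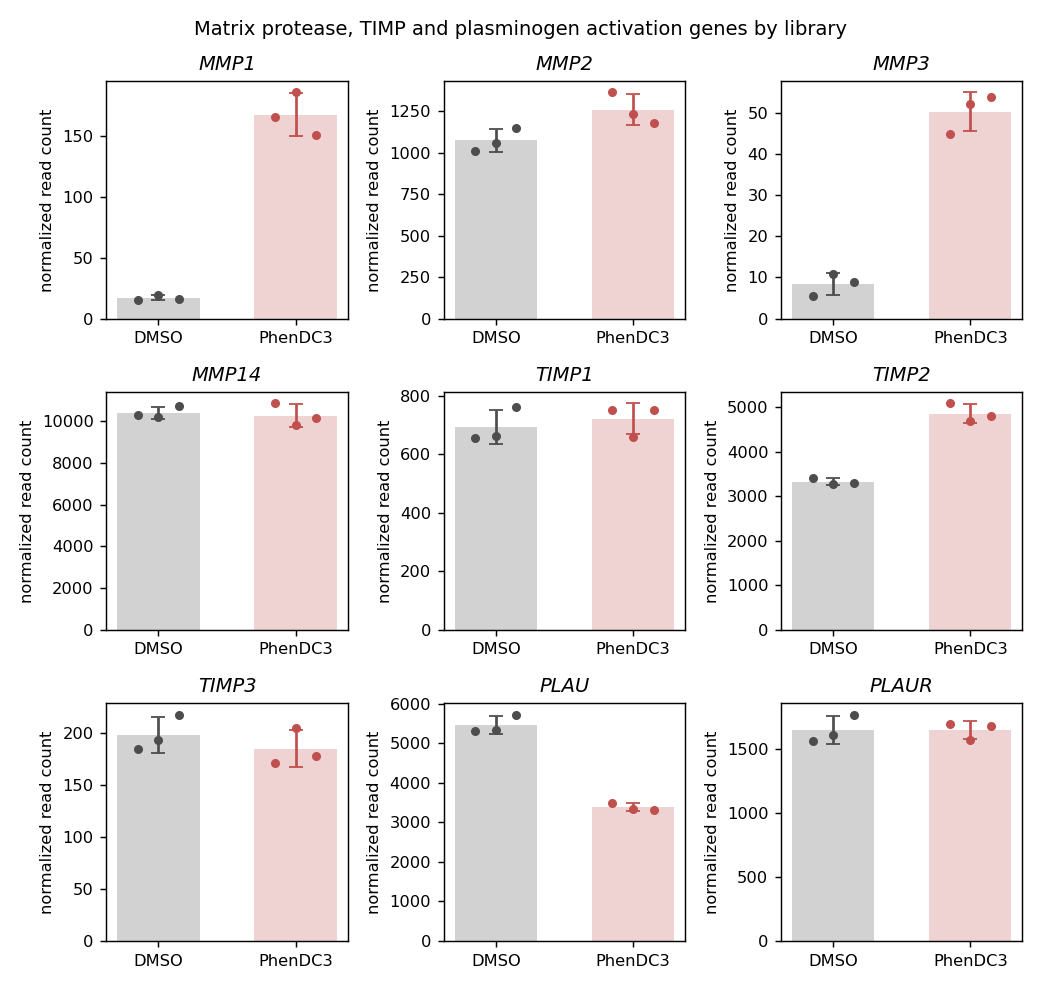
Normalized read counts (vertical axes, each from 0) of the 9 genes in 3 DMSO and 3 PhenDC3 libraries. Points are libraries, bars are group means and error bars are SD. MMP1 and MMP3 stand far above their DMSO level after PhenDC3, TIMP2 is higher, PLAU is lower, and the groups overlap for MMP14, TIMP1, TIMP3 and PLAUR.

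The interstitial collagenase gene MMP1 had the largest difference of the members. It was at 15.6, 19.3 and 16.5 normalized counts in the DMSO libraries, which were 20, 25 and 24 reads, and at 166, 186 and 151 in the PhenDC3 libraries, which were 140, 125 and 115 reads. The lowest PhenDC3 library was far above the highest DMSO library. MMP1 rose 9.77-fold in mean (limma on log2 of the value plus 1: log2 change 3.22, SE 0.17, 95% interval 2.87 to 3.56, adjusted p = 1.99e-12). Its log2 change exceeded that of 99.25% of tested genes.

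MMP3 encodes stromelysin 1, which cuts many matrix proteins and can help activate the MMP1 precursor. It was at 5.45, 10.8 and 8.96 normalized counts in DMSO (7, 14 and 13 reads) and at 45.0, 52.1 and 53.8 in PhenDC3 (38, 35 and 41 reads). The groups were well apart. The DMSO level rests on few reads, and its relative spread was the largest of the members. MMP3 rose 5.98-fold in mean (limma, log2 change 2.49, SE 0.26, 95% interval 1.94 to 3.04, adjusted p = 8.86e-08). The pseudocount of 1 holds down the log2 change of genes this low, and edgeR on the recovered reads gave 2.55 for MMP3 and 3.27 for MMP1.

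MMP1 and MMP3 are neighbours in a cluster of metalloproteinase genes on chromosome 11. In the GENCODE order the cluster runs MMP7, MMP20, MMP27, MMP8, MMP10, MMP1, MMP3, MMP12 and MMP13. MMP10, which encodes stromelysin 2 and lies on the other side of MMP1, had 0, 0 and 2 reads in DMSO and 3, 6 and 3 in PhenDC3, under the minimum mean for the main test. With no such minimum limma called it higher (log2 change 2.18, adjusted p = 0.00237), as did DESeq2 on recovered reads (log2 change 3.47, adjusted p = 0.0341). MMP13, a collagenase gene at the end of the cluster, was at 8.56, 6.96 and 4.14 normalized counts in DMSO and 9.47, 14.9 and 7.87 in PhenDC3, with overlapping groups (limma, log2 change 0.64, adjusted p = 0.159). MMP7, MMP8, MMP12, MMP20 and MMP27 were not analysed here. MMP1 shares 150 exonic bases and MMP3 shares 32 with WTAPP1 on the opposite strand, a pseudogene that was not analysed here.

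MMP2 encodes gelatinase A, which cuts denatured collagen and basement membrane collagen. It was at 1011, 1060.1 and 1152 normalized counts in DMSO and at 1365, 1236 and 1179.5 in PhenDC3. The groups did not overlap, but the lowest PhenDC3 library lay close to the highest DMSO library. The difference was 1.17-fold in mean (limma, log2 change 0.23, SE 0.07, 95% interval 0.08 to 0.38, adjusted p = 0.0109). The call was lost without DMSO replicate 1 (adjusted p = 0.0623), without PhenDC3 replicate 1 (adjusted p = 0.0742) and with no variance trend in limma (adjusted p = 0.0764).

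MMP14 encodes the membrane-bound metalloproteinase that activates the MMP2 precursor and was the most abundant of the 9 per length. Its DMSO libraries held 10290.3, 10191 and 10757 normalized counts and its PhenDC3 libraries 10863, 9814 and 10169.7. The groups overlapped throughout. The difference was not called (limma, log2 change -0.02, SE 0.06, adjusted p = 0.798), and its 95% interval, -0.14 to 0.10, covers a level from 0.907 to 1.07 times that in DMSO.

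Among the inhibitors, TIMP2, which blocks metalloproteinases and also takes part in MMP2 activation by MMP14, was the member that rose. It was at 3409, 3272 and 3298 normalized counts in DMSO and at 5078, 4680.5 and 4793 in PhenDC3. The groups were apart by far more than the spread within either. TIMP2 rose 1.46-fold (limma, log2 change 0.54, SE 0.06, 95% interval 0.42 to 0.67, adjusted p = 1.09e-07). CEP295NL, a gene within TIMP2 on the same strand that shares 198 exonic bases with it, went from 2.76 to 4.67 normalized counts in DMSO to 27.2 to 32.8 in PhenDC3, few counts beside those of TIMP2.

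TIMP1, a secreted inhibitor of many metalloproteinases, was at 657, 663 and 763 normalized counts in DMSO and 753, 661 and 752 in PhenDC3. In both groups the libraries spread over nearly the same range. The difference was not called (limma, log2 change 0.06, 95% interval -0.11 to 0.23, adjusted p = 0.563). TIMP3, which binds to the matrix and also inhibits ADAM proteases, was at 184, 193 and 218 in DMSO and 172, 205 and 178 in PhenDC3. These groups overlapped too, and the interval was wider (limma, log2 change -0.10, 95% interval -0.33 to 0.13, adjusted p = 0.44).

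PLAU, which encodes urokinase, was the member that fell. It was at 5312, 5342 and 5729.7 normalized counts in DMSO and at 3495, 3339 and 3312 in PhenDC3. Every PhenDC3 library was well under every DMSO library. PLAU was 1.61-fold lower in mean (limma, log2 change -0.69, SE 0.06, 95% interval -0.81 to -0.57, adjusted p = 3.59e-09). A fall of this size was not unusual, as 13.69% of tested genes had a lower log2 change. C10orf55, which shares 916 exonic bases with PLAU on the opposite strand, went from 28.6 to 37.2 normalized counts in DMSO to 14.4 to 20.1 in PhenDC3. The strand setting of the counting is unknown here, so reads of such pairs cannot be told apart.

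PLAUR, the gene of the receptor that holds urokinase at the cell surface, was at 1564, 1608 and 1769 normalized counts in DMSO and 1697, 1569 and 1682 in PhenDC3. The groups overlapped, with nearly equal means of 1647 ± 108 and 1649 ± 70.0 (SD, n = 3 each). The difference was not called (limma, log2 change 0.00, SE 0.07, adjusted p = 0.974), and its 95% interval of -0.14 to 0.14 leaves out a fall as large as that of PLAU.

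**Figure D2:**
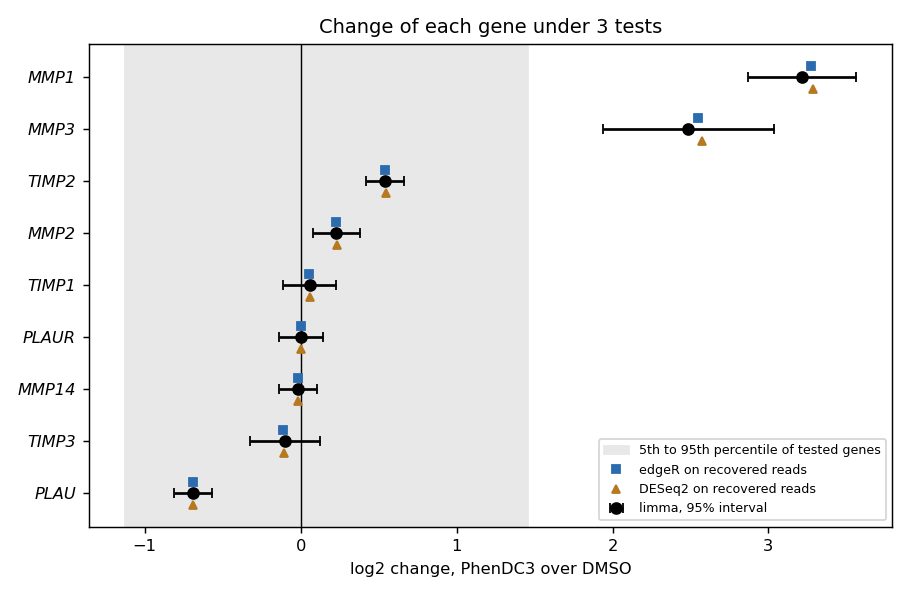
Log2 change of PhenDC3 over DMSO (horizontal axis) for the 9 genes, from limma with its 95% interval (black), edgeR (squares) and DESeq2 (triangles) on recovered reads. The grey band holds the 5th to 95th percentile of tested genes, -1.13 to 1.46, and MMP1 (3.22) and MMP3 (2.49) lie above it.

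Per length the order of the members stayed nearly the same. Levels were divided by the exonic length of each gene in GENCODE 29, which need not be the annotation that the authors counted on. In DMSO the mean normalized count per kilobase was 2333 for MMP14, 1851 for PLAU, 590 for TIMP2, 450.4 for TIMP1, 370 for PLAUR, 218 for MMP2, 43.1 for TIMP3, 8.71 for MMP1 and 4.11 for MMP3. The libraries of no 2 neighbours in this order overlapped. In PhenDC3 MMP1, at 85.1 ± 8.97 per kilobase (SD, n = 3), lay above TIMP3, at 40.2 ± 3.89, where in DMSO it had lain below it. The other members kept their places, with MMP14 at 2303, PLAU at 1146, TIMP2 at 861 and MMP3 at 24.6 per kilobase, and neighbours did not overlap there either. MMP1 thus stayed far under MMP14 per kilobase after PhenDC3.

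The members were also compared with each other within a library, as 4 ratios. Each is given as log2 of one normalized count plus 1 over the other plus 1, so that the scaling between libraries cancels except through the added 1, which weighs most for MMP1. The log2 ratio of MMP1 to its inhibitor TIMP1 was -5.31, -5.03 and -5.44 in DMSO and -2.18, -1.82 and -2.31 in PhenDC3, a difference of 3.16. MMP14 to TIMP2 went from 1.59, 1.64 and 1.71 to 1.10, 1.07 and 1.08, which made the ratio 1.48-fold lower. MMP2 to TIMP2 went from -1.75, -1.62 and -1.52 to -1.90, -1.92 and -2.02, or 1.24-fold lower. For these enzyme and inhibitor pairs MMP1 was thus higher relative to TIMP1, and MMP14 and MMP2 were lower relative to TIMP2.

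The log2 ratio of PLAUR to PLAU, the receptor to its ligand, went from -1.76, -1.73 and -1.69 to -1.04, -1.09 and -0.98, or 1.62-fold higher. In each of the 4 ratios the 2 groups did not overlap, as was so for 64.1% of single tested genes. Each pair holds a gene whose own libraries did not overlap between the groups, so the ratios are not separate evidence from the member results. The exact permutation test, two-sided, gave p = 0.1 for each, the smallest that 3 against 3 allows, and 0.1 after Benjamini-Hochberg adjustment over the 4.

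**Figure D3:**
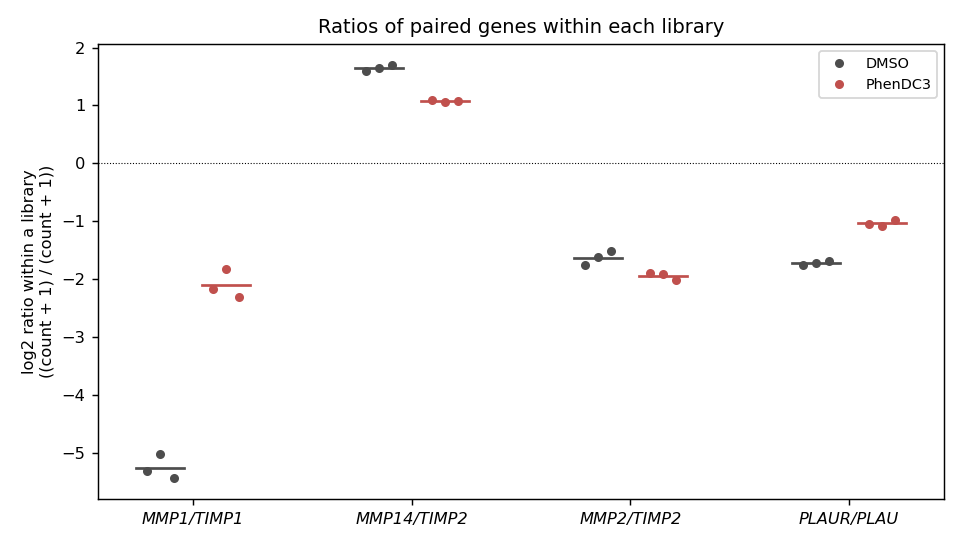
Log2 ratio of 2 genes within each library (vertical axis) for 4 pairs, in DMSO (grey) and PhenDC3 (red). Points are libraries and short lines are means. The mean of MMP1 to TIMP1 goes from -5.26 to -2.10, and the libraries of the 2 groups lie apart in each pair.

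Beyond PLAU and PLAUR, genes of the plasminogen system went both ways. Of 15 listed, 12 were measured and 11 tested, of which 1 rose, 7 fell and 3 were not called, where 29.2% of tested genes rose and 30.4% fell. The list's median log2 change was -0.29. The gene that rose was SERPINB2, which encodes a urokinase inhibitor. It had 2, 3 and 1 reads in DMSO and 38, 31 and 36 in PhenDC3 (limma, log2 change 4.28, SE 0.35, adjusted p = 1.77e-09). The added 1 holds down this value, and edgeR on the recovered reads gave a log2 change of 4.84 and DESeq2 4.95. The DMSO mean of SERPINB2, 1.52 normalized counts, was under the minimum for testing, which it reached only through its PhenDC3 libraries. With no such minimum limma also called it higher (adjusted p = 9.09e-10).

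PLAT, which encodes the other plasminogen activator, tissue-type, fell 2.36-fold. It was at 1992, 1939 and 1978 normalized counts in DMSO and at 882, 782 and 841 in PhenDC3 (limma, log2 change -1.24, SE 0.07, adjusted p = 3.69e-12). Genes of proteins that bind plasminogen at the cell surface also fell. PLGRKT, a membrane receptor for plasminogen, was 2.54-fold lower, S100A10 2.13-fold lower and its partner ANXA2 1.28-fold lower. ENO1, a glycolytic enzyme that can also bind plasminogen, was 1.64-fold lower. SERPINE2, which encodes an inhibitor of urokinase and thrombin, was 1.22-fold lower, so SERPINB2 and SERPINE2 moved in opposite directions. LRP1, a large receptor that takes up proteases and their complexes, was at 1421 ± 221 and 1255 ± 150.1 normalized counts (SD, n = 3 each) and was not called (limma, adjusted p = 0.134), though it was called lower without DMSO replicate 3 or without PhenDC3 replicate 1.

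Other metalloproteinase genes went both ways too. Of 19 listed, 9 were measured and 7 tested, with 1 higher, 4 lower, 2 not called and a median log2 change of -0.43, beside 29.2% higher and 30.4% lower among all tested genes. The membrane-type genes of the list did not move one way, since MMP15, MMP16 and MMP17 fell, MMP25 rose and MMP24 was not called (limma, log2 change -0.20, adjusted p = 0.364). MMP16 went from 411 ± 55.6 to 149 ± 13.9 and MMP17 from 197 ± 7.76 to 93.4 ± 8.77 normalized counts (SD, n = 3 each). MMP15 was 1.37-fold lower, while MMP25 went from 11.6 ± 3.63 to 43.3 ± 7.90. MMP9, which encodes gelatinase B, was at 74.7, 73.5 and 79.3 normalized counts in DMSO and 63.9, 41.7 and 65.6 in PhenDC3 (limma, log2 change -0.43, adjusted p = 0.0378). Without PhenDC3 replicate 2 the log2 change was -0.22 and the call was lost (adjusted p = 0.219). The call was also lost without any 1 of the 3 DMSO libraries (log2 change -0.45 to -0.40, adjusted p = 0.0589 to 0.0869) and in DESeq2 (log2 change -0.40, adjusted p = 0.182). RECK, a membrane-anchored inhibitor of metalloproteinases, was 1.39-fold lower (limma, adjusted p = 0.000906). FURIN, the protease that cuts the MMP14 precursor, was 1.12-fold lower (limma, log2 change -0.17, adjusted p = 0.0483) and was not called by edgeR (adjusted p = 0.053) or DESeq2 (adjusted p = 0.0977). The log2 change of FURIN was -0.10 without PhenDC3 replicate 2 (adjusted p = 0.258) and -0.08 with median scaling (adjusted p = 0.337). Its call was also lost without DMSO replicate 1 or 2 and without PhenDC3 replicate 3. BSG, an inducer of metalloproteinases, was not called (limma, adjusted p = 0.207). Those 3 were the tested members of a list of 6 further inhibitors and activators.

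Of 24 genes of the ADAM and ADAMTS families, which include proteases that shed surface proteins or cut proteoglycans, 19 were measured and 15 tested. Of these, 2 were higher and 11 lower, beside 29.2% and 30.4% of all tested genes, with a median log2 change of -0.78. The 11 include ADAMTSL1, whose product resembles the ADAMTS proteins but has no protease domain (limma, adjusted p = 0.0246). DESeq2 called 1 higher and 7 lower, with ADAMTS9, ADAMTS13, ADAMTS15 and ADAMTSL1 no longer among those lower. ADAM9, ADAM10 and ADAM15 were 2.16-fold, 1.73-fold and 2.26-fold lower. ADAM17, which sheds TNF and ligands of the EGF receptor, was 1.24-fold higher. The other called higher was ADAMTS12, at 9.02 ± 1.84 and 17.1 ± 5.87 normalized counts (SD, n = 3 each), close to the threshold (limma, log2 change 0.81, adjusted p = 0.0407). That call was lost in DESeq2 (adjusted p = 0.137) and when any 1 library but PhenDC3 replicate 2 was left out (adjusted p = 0.0519 to 0.162).

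The 13 genes listed for invadopodia, the actin-rich protrusions where MMP14 gathers, were all tested and went both ways, with 5 higher, 4 lower and a median log2 change of 0.11, where the shares over all tested genes were 29.2% and 30.4%. CTTN, encoding the actin-binding protein cortactin, rose 2.18-fold, and WASL, an activator of actin branching, 2.58-fold. PXN, the gene of the adaptor protein paxillin, rose from 5188 ± 168 to 7795 ± 254 normalized counts (SD, n = 3 each). SH3PXD2A, the gene of the scaffold protein TKS5, was 1.47-fold higher and SRC 1.42-fold higher. CD44, ITGB1, FSCN1 and ACTR2 fell, each by 1.33-fold or less. Genes of AP-1 and ETS factors, which are known to act at the promoters of MMP1, MMP3 and PLAU, were 5 higher and 6 lower of 12, beside the same 29.2% and 30.4%, with a median log2 change of -0.18. JUNB rose 3.61-fold, JUND 1.82-fold and FOSL1 1.55-fold, while FOS was 2.56-fold and ETV1 1.79-fold lower.

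**Figure D4:**
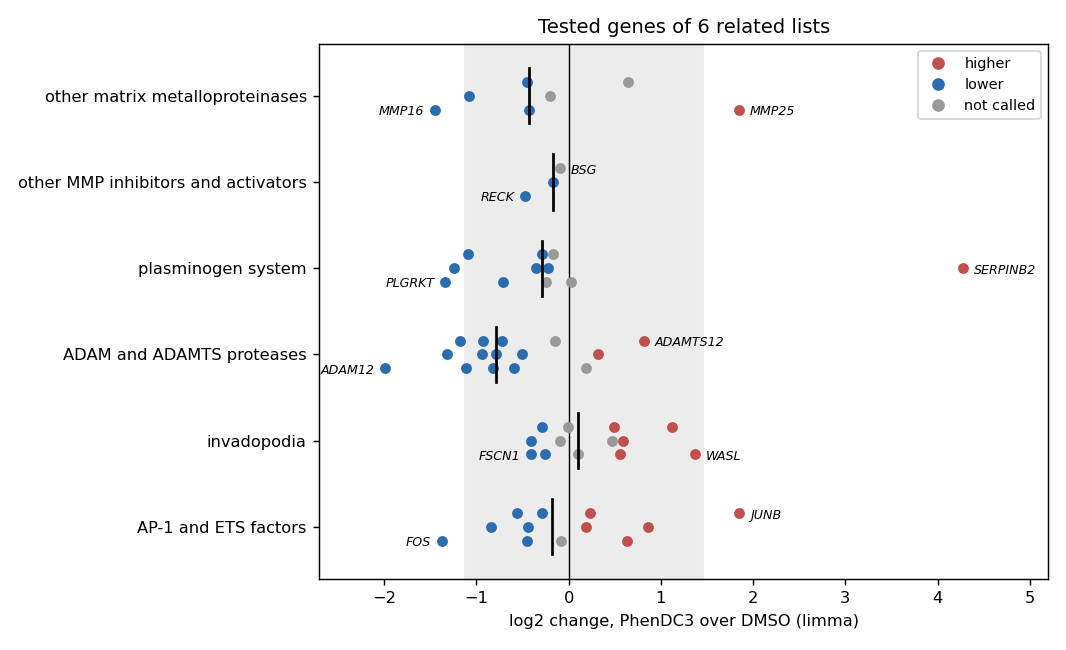
Log2 change of PhenDC3 over DMSO in limma (horizontal axis) for the tested genes of 6 lists, coloured by whether they were called higher, lower or not called. Black lines are list medians, the grey band holds the 5th to 95th percentile of tested genes, and the lowest and highest gene of each list is named. SERPINB2 lies farthest to the right, at 4.28, and the ADAM and ADAMTS list has the lowest median, -0.78.

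The genes whose values across the 6 libraries were most like those of a member were found by the Euclidean distance between log2 values centred on the DMSO mean, a measure in which the difference between the groups weighs most. For MMP1 they were WDR66, CLIP4, SCG5, TM4SF19 and HDAC9, at distances of 0.389 to 0.568. The search covered 9307 genes with a mean of 100 or more. MMP1 itself did not reach that mean, so genes as low as MMP1 were left out. WDR66 went from 26.7 ± 2.19 to 238 ± 5.41 normalized counts (SD, n = 3 each). The DMSO means of the genes nearest to MMP1 were 22.9 to 54.3. They thus reached the mean of 100 only through their PhenDC3 libraries. For PLAU the nearest were TUBB, SMTN, MCM3, EPHB2 and GUSB, at distances of 0.054 to 0.065. The genes near MMP1 and PLAU were picked for their likeness to called members, so their changes are no separate result. For TIMP3 the nearest were TRIAP1, RSL24D1, C9orf78, NGLY1 and TIMM17A, at 0.107 to 0.114. None of these 5 was called in limma, whose adjusted p ranged from 0.0862 to 0.372. They were picked for their likeness to TIMP3, which was not called, so this is no separate result. With 1 library left out, the lowest limma adjusted p was 0.0436 for RSL24D1, 0.0482 for NGLY1 and 0.0803 or more for the others. The distances for PLAU and TIMP3 were shorter than for MMP1. MMP1 had both fewer reads and a larger change between the groups, and what made its distances longer was not tested.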

How the data were processed

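Poly(A) RNA of 6 HT-1080 libraries was measured, 3 per group, with groups and replicate numbers from the labels. The deposited signal is a count of reads per gene, which the authors scaled with a size factor for each library. The values themselves show this, since 100% of them are whole multiples of the column's lowest nonzero entry (relative tolerance 1e-06), and whole reads were recovered from them. The authors' deposited log2 fold change and adjusted p-value served as an alternative. The submitters' processing notes name TopHat2 2.0.11, Cufflinks 2.2.1, Cuffdiff, CASAVA, STAR 2.7, featureCounts, DESeq2 1.18.1 and hg19, without their roles. The annotation, filters and strand setting used in counting are unknown here. Nothing says that replicates were separate cultures, so p-values reflect the spread among libraries alone, possibly technical.

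The main test was limma 3.58.1 (R 4.3.3) on log2(value + 1) with a variance trend, over the 16482 genes with a mean of 5 or more, adjusted by Benjamini-Hochberg, with calls at an adjusted p under 0.05. Alternatives included edgeR 4.0.16 and DESeq2 1.42.0 on recovered reads. The code was also run on simulated reads, with few changed genes and the same spread beyond sampling noise for every gene. These data differ in both, so the simulation gives no error rate for them. Symbols were completed from reference tables, and GENCODE 29 (GRCh38), which held 22123 of the 22925 genes, gave lengths, overlaps and gene order. Within each group libraries differed by more than sampling noise (chi-square per degree of freedom 1.45 to 7.75, the largest between DMSO replicate 3 and the other 2), so none was counted as a duplicate. Members and lists were chosen with earlier results of these data known. Named genes were the members, up to 6 called genes per list by adjusted p, and the 5 genes nearest to MMP1, TIMP3 and PLAU. Called genes beyond that rule, genes not called and those too low to test were named after their values were seen. 1 gene of the plasminogen list, and a planned ratio that uses it, are not reported here.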

Additional observations from a re-analysis of the deposited data

How the results depend on the processing

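The 5 called members were the same in 12 of 16 alternatives, and in the other 4 MMP2 alone lost its call. Those were limma without a variance trend (log2 change 0.23, adjusted p = 0.0764), a threshold of 0.01 (0.23, adjusted p = 0.0109) and the fits without DMSO replicate 1 or without PhenDC3 replicate 1. Leaving out 1 library gave MMP2 a log2 change of 0.17 to 0.28, MMP14 -0.059 to 0.014 and PLAUR -0.033 to 0.055, so the sign of the last 2, which were not called in any fit, is not determined. Scaling without mitochondrial genes kept every member's call. With the median MMP14 was at 0.067, and C9orf78 at 0.001. With the upper quartile PLAUR was at -0.005 (adjusted p = 0.953). The median log2 change of all tested genes moved too, from -0.017 to 0.067 with the median and to -0.025 with the upper quartile. These shifts were thus not particular to the genes named. Why the scalings differ was not tested. Among the other metalloproteinases, DESeq2, the deposited values and the fit with no filter called 2 genes higher in place of 1, the second being MMP10. Of the further inhibitors and activators FURIN lost its call, leaving 1 lower in place of 2, in edgeR, DESeq2, the deposited values, the fit with no filter, median scaling, no variance trend and at 0.01, and 1 to 2 when 1 library was left out. Of the ADAM and ADAMTS genes ADAMTS12 lost its call, leaving 1 higher in place of 2, in DESeq2, the deposited values, the fit with no filter, no variance trend and at 0.01, and 1 to 2 when 1 library was left out, while 7 in place of 11 were lower in DESeq2 and in the deposited values. Each ratio kept its direction with a pseudocount of 0.5 and without any 1 library. With loops of up to 12 bases 4 of the 6 promoter windows held a G quadruplex motif, against 35.4% of the 35114 promoters. Residuals of same-numbered libraries correlated at 0.00788, 0.0712 and 0.027. Of the 3 DMSO libraries, 1 correlated best with the PhenDC3 library of its own number. With 3 libraries per group this cannot decide whether same-numbered libraries were paired, and the labels give only a shared number. A replicate block in limma called 10155 genes against 9818, and each member kept its call. The low DMSO reads of MMP3, MMP10 and SERPINB2 limit how well their fold changes are known.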
